A study of Mus musculus with 2 samples.

Results

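The Six-family and *Eya* genes encode partners of one developmental pathway, and 9 of them (*Six2*, *Six3*, *Six4*, *Six5*, *Six6*, *Eya1*, *Eya2*, *Eya3* and *Eya4*) were read in mouse embryonic stem (ES) cells and in embryonic forebrain. The members were chosen by symbol, were all found in both samples, and make up 9 of the 29311 genes listed. RNA-seq was made on 1 sample of each kind, without replicates: wild-type ES cells of strain E14, an established line that was grown without feeder cells in serum and LIF, and wild-type forebrain cells of B6CBAF1/J embryos at stage E10.5 (counted in embryonic days). The samples differ in strain, in tissue and in library at once, and these cannot be told apart. Every value below comes from 1 library, so differences are given with intervals that cover the counting of reads only, and no difference between the samples could be tested.

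SIX-family proteins are transcription factors that bind DNA through a homeodomain and a neighbouring SIX-type domain. EYA proteins bind no DNA themselves. They bind SIX-family proteins, act as co-activators, and carry a protein tyrosine phosphatase domain. Together with Pax and Dach genes they form a network known for its part in the eye, ear, kidney and skeletal muscle. SIX3 and SIX6 are best known in the anterior forebrain and the eye, where they also act as repressors with Groucho-type (TLE) co-repressors.

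The 250 bases upstream of the start of *Six2*, *Six3* and *Six6* are given 5′ to 3′ from RefSeq. These genes are the Six-family members with 1 read in ES cells. The build is GRCm38.p6, which differs from the build of the expression values. Of the 9 members, 7 were found in this promoter set. No entry was found for *Eya1* and *Eya2*. Capitals mark the runs of at least 11 bases that *Six6* shares with *Six2* or *Six3* on the same strand, which were chosen after the sequences had been seen. The windows lie at chr17:85688255-85688504 on the minus strand for *Six2*, at chr17:85620584-85620833 on the plus strand for *Six3* and at chr12:72939632-72939881 on the plus strand for *Six6*.
Six2: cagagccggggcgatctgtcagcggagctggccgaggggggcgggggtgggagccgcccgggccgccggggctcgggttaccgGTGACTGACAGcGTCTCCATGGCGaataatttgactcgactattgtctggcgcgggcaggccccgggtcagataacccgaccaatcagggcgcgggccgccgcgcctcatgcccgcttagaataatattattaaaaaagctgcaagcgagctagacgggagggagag
Six3: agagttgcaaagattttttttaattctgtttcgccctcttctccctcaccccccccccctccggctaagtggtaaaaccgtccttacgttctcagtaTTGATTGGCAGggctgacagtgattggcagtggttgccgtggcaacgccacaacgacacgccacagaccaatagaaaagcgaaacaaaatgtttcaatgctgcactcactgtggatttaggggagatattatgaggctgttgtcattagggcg
Six6: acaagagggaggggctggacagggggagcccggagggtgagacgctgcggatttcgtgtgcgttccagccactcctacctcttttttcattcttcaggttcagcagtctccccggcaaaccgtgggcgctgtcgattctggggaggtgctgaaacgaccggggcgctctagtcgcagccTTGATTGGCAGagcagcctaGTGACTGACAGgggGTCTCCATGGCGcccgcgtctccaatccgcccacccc

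*Six2* and *Six6* shared 2 such runs in the same order. The first, GTGACTGACAG, ended 157 bases before the start of *Six2* and 41 before that of *Six6*. The second, GTCTCCATGGCG, ended at 144 and 26 bases. The runs were separated by 1 base in *Six2* and by 3 bases in *Six6*. On either strand, the first was found in 12 (0.037%) and the second in 11 (0.033%) of 32851 promoters of this length. Both runs occurred together in 5 entries, which were *Six2*, *Six6* and 3 entries of *CJ186046Rik*, a transcript that starts beside *Six2* on the other strand and whose windows cover the same bases. *Six3* and *Six6* shared the run TTGATTGGCAG, which ended 143 and 61 bases before their starts and was found in 11 promoters (0.033%).

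Over the 21 pairs of the 7 genes, the longest shared run on either strand ranged from 8 to 13 bases. The longest, between *Six3* and *Eya4*, was made of C and T only. Members with more reads in ES cells shared runs of 11 bases too. These were *Six5* (106 reads) with *Six2*, a run found in 87 promoters, and *Six4* (1225 reads) with *Six3*, found in 22. The longest run of *Six2* and *Six3* had 9 bases. The letters CCAAT, searched on both strands, were found in 33.8% of all promoters and in *Six2*, *Six3*, *Six4* and *Six6*, with 3 occurrences in *Six3*. The letters TGACAG, also searched on both strands and contained in the first run above, were found in 15.9% of all promoters and in *Six2*, *Six3*, *Six5* and *Six6*. Both motifs were chosen after the sequences had been seen. The number of CpG dinucleotides per window was between 10 (*Six3*) and 35 (1 of the 2 *Eya4* entries), against a median of 6 over all promoters. These matches describe the letters and show no binding.

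Expression is given as the RPKM that was deposited, a read count per kilobase of exon that the authors scaled per sample. The values are not per 1000000 reads. On that scale, counting reads on genes, they would be divided by 52.2 in ES cells and 49.0 in forebrain. Differences were computed on log2(RPKM + 1), forebrain minus ES cells, a scale on which changes of weakly read genes appear smaller than they are, and a gene was counted as higher where this difference reached 2, a 4-fold change on that scale. Reads per gene were inferred from the smallest steps of the values. On all genes together, 42742392 reads were inferred for the ES cell library and 59771861 for the forebrain library. A floor of 3 reads corresponded to an RPKM between 0.419 (*Six3*) and 1.74 (*Six2*) among the members in ES cells.

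Of the 9 members, 7 were at least 4-fold higher in E10.5 forebrain, 4 of the 5 Six-family genes and 3 of the 4 *Eya* genes. Over all 29311 genes, 14.4% passed this rule. No member was at least 4-fold higher in ES cells (0 of 9), where 11.3% of all genes passed. The median difference was 3.89 for the Six-family genes, 4.17 for the *Eya* genes and 0.01 for all genes on the log2 scale. The Six-family median is the value of *Six3*, which had 1 read in ES cells. The family medians did not move with *Eya2*, the member listed at 0 in ES cells, set to the floor. No Six-family gene was at 0, and *Eya2* still had the largest difference of the *Eya* genes. The members with 1 read were left as listed, so their part in the medians was not tested this way. *Six4* and *Eya3* were the 2 members that stayed within 4-fold.

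**Figure D1:**
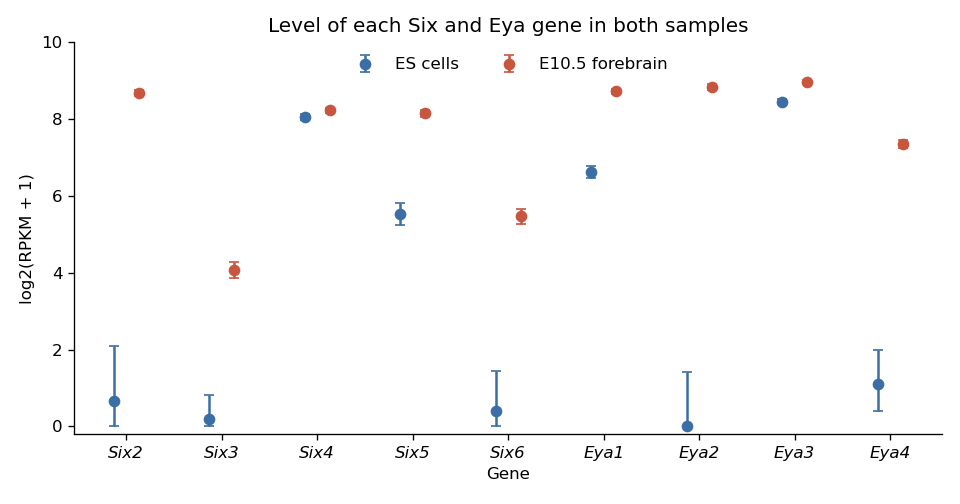
Level of each Six-family and *Eya* gene, as log2(RPKM + 1), in ES cells (blue) and E10.5 forebrain (red); 1 library each, with bars for the exact Poisson 95% interval of the inferred reads. In ES cells 5 genes lie at or near 0, while in forebrain all 9 lie above 4.

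Among the Six-family genes, *Six2* had the widest difference. *Six2*, known for keeping nephron progenitors undifferentiated and also active in head mesenchyme (chr17:86083608-86087594, minus strand, mm9), had an RPKM of 0.58 in ES cells from 1 read (exact Poisson 95% interval 0.0147 to 3.23). In E10.5 forebrain its RPKM was 410.13 from 1055 reads (386 to 436). The ratio was 707-fold, with an exact conditional 95% interval of 127 to 28000, and the log2 difference of 8.02 was exceeded by 0.225% of all genes. Its forebrain level was above that of 74.8% of all genes.

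*Six3*, which is needed for the anterior forebrain to form (chr17:86012948-86031153, plus strand), also had 1 read in ES cells, an RPKM of 0.14 (0.00354 to 0.778). In forebrain it had an RPKM of 15.86 from 169 reads (13.5 to 18.4), the lowest of the 9 members there and above 36.5% of all genes. The ratio was 113-fold (20.1 to 4500) and the log2 difference 3.89. *Six3* also has the longest exonic sequence of the members, 8750 bases over all annotated transcripts, over which its reads were divided.

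*Six6*, known for its part in the eye and the pituitary (chr12:74040932-74045886, plus strand), was the third Six-family gene with 1 read in ES cells. Its RPKM was 0.31 there (0.00782 to 1.72) and 43.58 in forebrain from 210 reads (37.8 to 49.8). The ratio was 141-fold (25 to 5590), the log2 difference 5.09. *Six3* and *Six6*, the members best known from the anterior forebrain, were therefore the 2 lowest members in the forebrain library.

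*Six5* (chr7:19679893-19683694, plus strand), which lies beside the myotonic dystrophy kinase gene *Dmpk*, was read in both samples. It had an RPKM of 45.36 in ES cells from 106 reads (37.2 to 54.9) and of 284.08 in forebrain from 989 reads (267 to 302). The ratio was 6.26-fold (5.12 to 7.72), with a log2 difference of 2.62.

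*Six4* (chr12:74201246-74214401, minus strand), known from skeletal muscle development, had the most even levels. The RPKM was 266.15 in ES cells from 1225 reads (252 to 282) and 299.67 in forebrain from 2057 reads (287 to 313). The ratio of 1.13 had a counting interval of 1.05 to 1.21, and 45.7% of all genes had a larger log2 difference than its 0.17. *Six4* was the highest Six-family gene in ES cells, and it stood near the 70th percentile of all genes in both samples (69.9 and 69.8).

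Among the *Eya* genes, *Eya2* was the one listed at 0 in ES cells. *Eya2*, a co-activator also known from skeletal muscle (chr2:165480798-165597227, plus strand), had no read in ES cells, where the exact Poisson 95% interval of 0 reads reached an RPKM of 1.65 and the floor of 3 reads was 1.34. In forebrain it had an RPKM of 457.55 from 1525 reads (435 to 481). This forebrain level was 341 times that floor, which is not a lower limit of the ratio. The log2 difference of *Eya2* was 8.84, and 0.102% of all genes had a larger one.

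*Eya4*, known from inherited deafness and heart muscle disease (chr10:22823974-23069701, minus strand), had 4 reads in ES cells, an RPKM of 1.16 (0.318 to 2.99). In forebrain the RPKM was 163.15 from 835 reads (152 to 175), a ratio of 141-fold (54.5 to 515) and a log2 difference of 6.25. It was the lowest of the *Eya* genes in forebrain.

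*Eya1*, the gene of branchio-oto-renal syndrome (chr1:14159035-14300281, minus strand), was clearly read in both samples. Its RPKM was 98.02 in ES cells from 351 reads (88.1 to 109) and 422.38 in forebrain from 2254 reads (405 to 440). The ratio was 4.31-fold (3.85 to 4.83). With a log2 difference of 2.10, *Eya1* was the member just inside the 4-fold rule, and *Eya3* with 0.51 the nearest one outside it.

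*Eya3*, whose product is linked to the repair of DNA damage through H2AX (chr4:132194902-132280680, plus strand), was the highest member in both samples. The RPKM was 351.21 in ES cells from 1623 reads (334 to 369) and 499.48 in forebrain from 3443 reads (483 to 516). Its ratio was 1.42 (1.34 to 1.51), and 36.2% of all genes had a larger log2 difference.

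**Figure D2:**
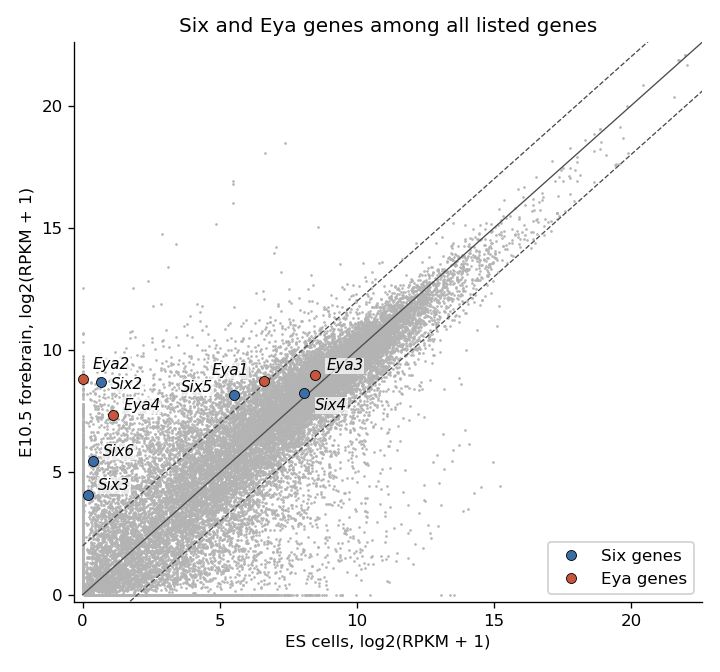
Level of all 29311 genes as log2(RPKM + 1) in ES cells (horizontal) and E10.5 forebrain (vertical), with the Six-family genes in blue and the *Eya* genes in red; the solid line marks equal levels and the dashed lines the 4-fold rule. *Six4* and *Eya3* lie between the dashed lines and the other 7 members above the upper one, with *Eya1* closest to it.

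The order of the members also differed between the samples. In ES cells the order by RPKM was *Eya3*, *Six4*, *Eya1* and *Six5*, and each of these differed from the next beyond the counting interval, as did *Six5* from *Eya4* (39.1-fold, 14.8 to 146). *Eya4*, *Six2*, *Six6*, *Six3* and *Eya2* followed with 4 reads or fewer, and no neighbours among them differed beyond the counting of reads. In forebrain the order was *Eya3*, *Eya2*, *Eya1*, *Six2*, *Six4*, *Six5*, *Eya4*, *Six6* and *Six3*. There *Eya1* and *Six2* (ratio 1.03, 0.957 to 1.11) and *Six4* and *Six5* (1.05, 0.978 to 1.14) did not differ beyond the counting interval. The step from *Eya3* to *Eya2* was small, 1.09-fold (1.03 to 1.16).

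Summed over the family, the RPKM of the Six-family genes was 312.54 in ES cells and 1053.32 in forebrain, a 3.37-fold ratio. The sum of the *Eya* genes was 450.39 and 1542.56, a 3.42-fold ratio. In ES cells *Six4* made up 85.2% and *Six5* 14.5% of the Six-family sum. In forebrain *Six2* made up 38.9%, *Six4* 28.5%, *Six5* 27.0%, *Six6* 4.14% and *Six3* 1.51%. *Eya3* made up 78.0% and *Eya1* 21.8% of the *Eya* sum in ES cells. In forebrain *Eya3* made up 32.4%, *Eya2* 29.7%, *Eya1* 27.4% and *Eya4* 10.6%. The ratio of the sums depended on single members. For the Six-family genes it was 2.06 without *Six2*, the highest in forebrain (311.96 and 643.19), and 16.25 without *Six4*, the highest in ES cells, an alternative chosen after seeing the data. For the *Eya* genes it was 10.52 without *Eya3*, the highest in both samples (99.18 and 1043.08).

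**Figure D3:**
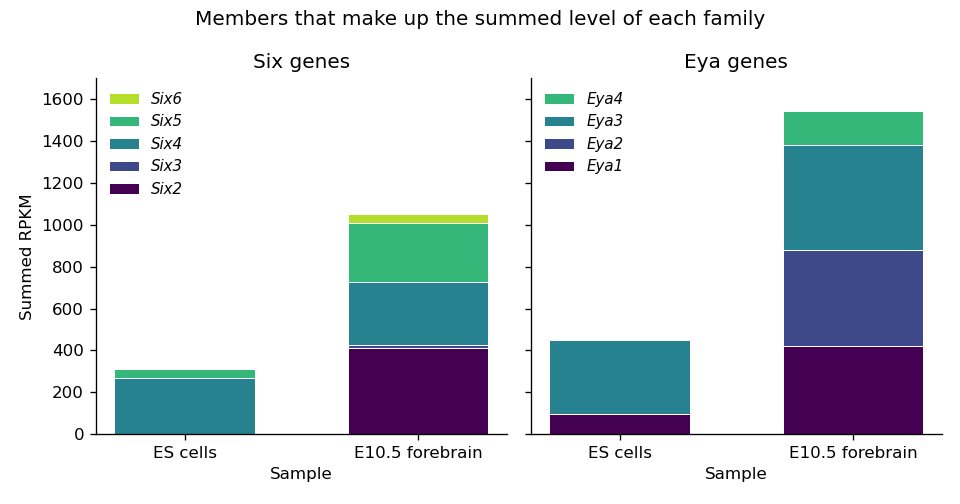
Summed RPKM of the Six-family genes (left) and the *Eya* genes (right) in each sample, 1 library each, with a segment for every gene. *Six4* and *Eya3* make up most of the sums in ES cells (85.2% and 78.0%), and other members add most of the higher sums in forebrain.

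The 2 samples were set against lists of marker genes. All 8 ES cell markers were at least 4-fold higher in ES cells (summed RPKM 40880 and 310.8 in forebrain), and all 8 forebrain neural markers were at least 4-fold higher in forebrain (211.1 and 10500). None of the markers of either sample's own type was at 0 in it. Markers of other cell types were also high in the forebrain library. Of 10 head mesenchyme and neural crest markers, the 9 with values were at least 4-fold higher there, and 1 (*Tfap2b*) was not analysed here (summed RPKM 90.41 in ES cells and 7332 in forebrain, from 107.48 for *Snai2* to 1795.6 for *Pdgfra*). All 4 primitive erythroid markers were higher (167.5 and 307400), as were 3 of 4 endothelial markers (601.8 and 1587). The exception was *Pecam1*, at 551.14 in ES cells and 316.51 in forebrain, which made up most of the endothelial sum in ES cells.

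Of 10 surface ectoderm and placode markers, 5 were at least 4-fold higher in forebrain (*Trp63*, *Cryaa*, *Dlx5*, *Neurod1* and *Emx1*, the last 3 of which are also known from forebrain neurons or their progenitors) and 1 (*Epcam*) in ES cells, while *Krt8*, *Krt18*, *Foxe3* and *Pitx3* stayed within 4-fold. The sums of this list were 1875 and 883.3. Of 4 skeletal muscle markers 1 (*Myf5*) was higher. *Actc1*, the highest of them in both samples, stayed within 4-fold at 549.86 in ES cells and 739.61 in forebrain. The myogenic factors *Myod1* and *Myog* had an RPKM of 1.33 and 3.88 in forebrain. None of the markers listed in the files was at 0 in forebrain. *Six2*, *Eya1*, *Eya2* and *Eya4* are also known from head mesenchyme, placodes or muscle. The part of these cells in the forebrain levels of the 9 members was not tested, and in bulk samples fewer cells of a type and less RNA per cell cannot be told apart.

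The genes that act with the members were followed in lists, which were described by counts and medians beside the median of 0.01 over all genes. In the network of Pax and Dach genes with the Dach-related *Ski* and *Skil*, 6 of 9 genes were at least 4-fold higher in forebrain and 0 in ES cells (median log2 difference 2.69). *Dach1*, a co-repressor of the same network, had an RPKM of 0.50 (3 reads) in ES cells and 245.87 in forebrain, a log2 difference of 7.36, and *Dach2* was at 6.25 and 45.92. *Pax3* was listed at 0 in ES cells and at 179.32 in forebrain, 303 times the floor of 3 reads, and *Pax7* was at 0.21 and 134.77. *Pax6*, the eye and forebrain Pax gene, was at 17.54 and 267.32, and *Pax2* at 0 and 3.39, 5.37 times the floor. *Ski* (379.3 and 425.96) and *Skil* (594.88 and 704.9) were the 2 highest genes of the list in both samples and, like *Six4* and *Eya3*, stayed within 4-fold.

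Of 6 genes of the Groucho (TLE) family, some of whose products are co-repressors with SIX3 and SIX6, *Tle2* was at least 4-fold higher in forebrain (2.16 and 21.37). *Tle6* was at least 4-fold higher in ES cells (144.9 and 24.01). The median log2 difference was 0.68. *Aes* (1981.81 and 2650.48) and *Tle4* (1127.13 and 768.64) were the 2 highest in both samples.

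Of 13 transcription factors of the eye field and anterior forebrain, 11 were at least 4-fold higher in forebrain and 2 in ES cells (median 3.64), the latter *Tbx3* (954.62 and 150.84) and *Mitf* (328.57 and 38.46). *Otx2*, an early head gene (78.53 and 989.44), and *Lhx2*, which the eye field needs (0 and 876.64), were the highest in forebrain. *Nr2e1* (0 and 393.27) and *Vax1* (0 and 110.36) were also listed at 0 in ES cells. *Tbx2* was at 2.36 and 431.34, and *Pax6* as above. *Rax* (5.12 and 53.98), *Hesx1* (3.21 and 18.31) and *Vax2* (2.97 and 15.94) were, like *Six3* and *Six6*, below an RPKM of 60 in forebrain.

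Of 8 reported partners and targets of SIX3 and SIX6, 4 were at least 4-fold higher in forebrain and 1 in ES cells (median 1.85, or 1.67 with the genes at 0 set to the floor). *Shh*, which SIX3 activates in the forebrain, was at 0 and 164.91, 121 times the floor. *Wnt8b* was at 1.08 and 262.52, *Wnt1*, which SIX3 represses, at 0 and 7.19, and *Nr4a3* at 0.20 and 3.97. *Bmp4* was the gene higher in ES cells (1748.68 and 264.07). *Sox2* (7181.95 and 2602.06) and *Gmnn*, whose product binds SIX3 (2895.41 and 1806.61), were the 2 highest in both samples.

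Of 6 targets of other SIX-family proteins, *Gdnf* was at least 4-fold higher in forebrain (1.04 and 11.67) and none in ES cells (median 0.89). *Ccnd1*, a cyclin gene of the cell cycle, was at 2289.56 and 4463.99. Of the 5 genes around the phosphatase activity of EYA on the histone H2AX, *Apbb1*, whose product binds phosphorylated H2AX, was at least 4-fold higher in forebrain (145.01 and 951.83). The median of this list was 0.77. *H2afx*, the H2AX gene (4323.69 and 3633.15), and *Baz1b*, the kinase for the same tyrosine (1326.86 and 2179.96), were the 2 highest in both samples.

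**Figure D4:**
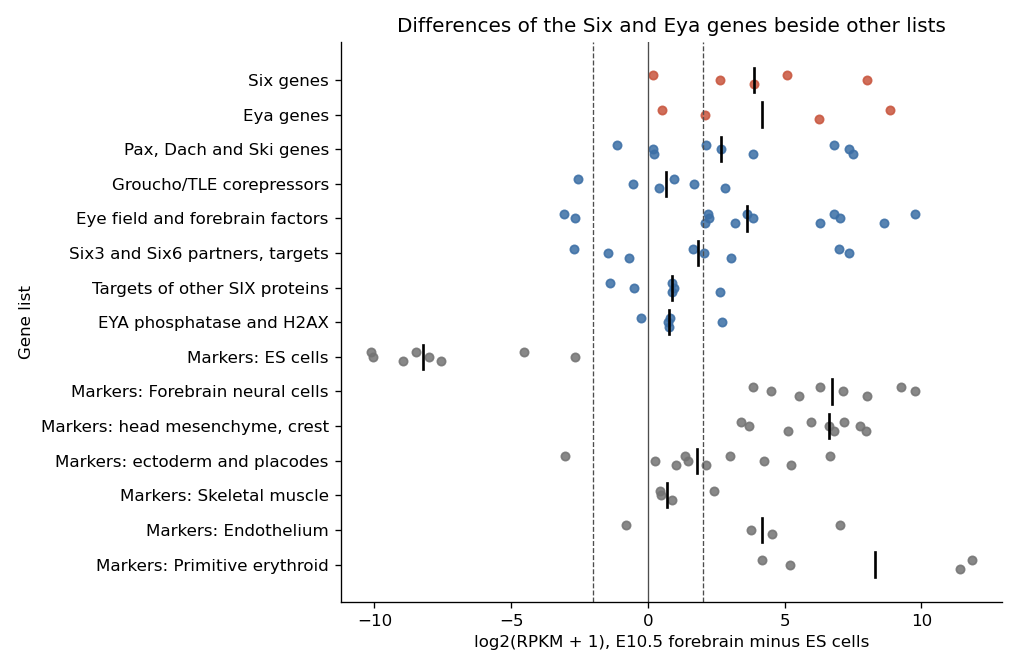
Difference in log2(RPKM + 1), E10.5 forebrain minus ES cells, of every Six-family and *Eya* gene (red), of the other gene lists (blue) and of the cell type markers (grey); black lines are list medians, dashed lines mark the 4-fold rule, and some genes, such as *Pax6*, *Lhx2*, *Tbx3* and *Myog*, stand in 2 or more lists. The Six-family and *Eya* medians are 3.89 and 4.17, beside 6.72 for the forebrain neural and 6.61 for the head mesenchyme markers.

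The members' positions were compared with those of the next genes. *Six3* and *Six2* lie 52.5 kb apart on chromosome 17, and both had 1 read in ES cells. The bases shown above lie upstream of the RefSeq start of *Six3*, which need not be the start annotated in NCBIM37. *Six3os1*, a long noncoding RNA gene on the opposite strand, overlaps the 5′ end of *Six3* as annotated in NCBIM37 and shares 106 exonic bases with it. Its RPKM was 0.41 in ES cells from 3 reads and 157.7 in forebrain from 1712 reads, against 169 reads for *Six3* over an exonic length close to its own (8893 and 8750 bases). The libraries were strand-specific, but whether strand was used in the counting is not given in the sources used here, so reads on the shared bases cannot be told apart. With the reads of both genes summed over their joint exons, an alternative chosen after seeing the data, the log2 difference was 6.12 in place of 3.89 for *Six3* alone. The next protein-coding genes outside the pair, *1700106N22Rik* (62.35 and 37.16) and *Srbd1* (1237.67 and 1038.07), stayed within 4-fold.

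**Figure D5:**
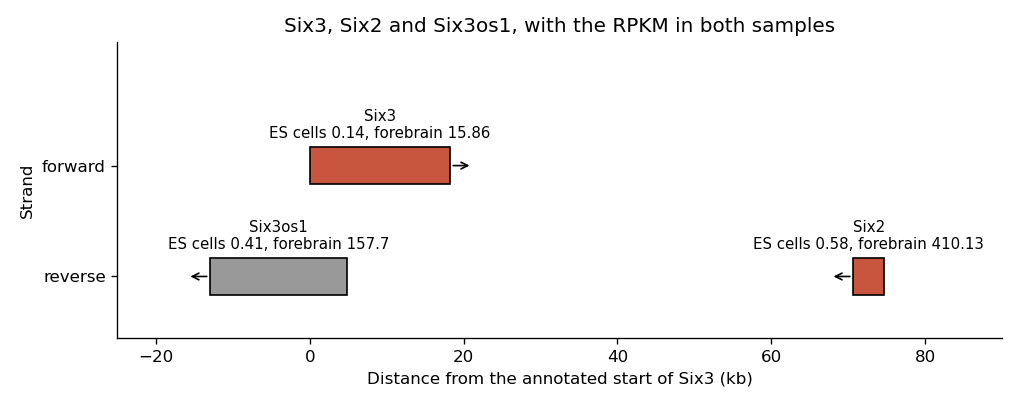
*Six3*, *Six2* (red) and *Six3os1* (grey) by strand and by distance in kb from the annotated start of *Six3*, drawn to scale with arrows in the direction of transcription and the RPKM of each sample. All 3 genes have an RPKM below 0.6 in ES cells, and in forebrain *Six3os1* (157.7) and *Six2* (410.13) lie above *Six3* (15.86).

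*Six6* shares 139 exonic bases with *4930447C04Rik* on the opposite strand, which went the other way, with an RPKM of 233.66 in ES cells and 26.83 in forebrain (log2 difference -3.08). Among the reads of *Six6* and this gene, those on the shared bases cannot be told apart either. *Ppm1a*, 145 kb before *Six6*, was at 1065 and 805.05, and *Mnat1*, 10.3 kb beyond *Six4*, at 742.51 and 672.27. *Dmpk* ends 0.723 kb before *Six5* and was at 54.08 and 107.43, and *Gm4969* on its other side was at 8.61 and 5.68.

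The genes next to *Eya1* were *Xkr9* (3.17 and 0.43) and *Msc* (200.52 and 5.72), 467 and 443 kb away, of which *Msc* was at least 4-fold higher in ES cells, the opposite of *Eya1*. *Slc2a10*, 135 kb before *Eya2*, was listed at 0 in ES cells and at 60.92 in forebrain, while *Zmynd8*, 12.4 kb beyond *Eya2*, was at 307.4 and 189.93. *Xkr8* lies 0.132 kb from *Eya3* and was at 91.95 and 57.18, and *Ptafr* on the other side was at 0 and 14.35. *Tcf21* (0 and 0.67) and *Rps12* (6252.24 and 1370.06) flank *Eya4* at 284 and 435 kb. Entries within the introns of *Eya* genes were a miRNA in *Eya1* (*AC156988.1*, 0 and 8.19, 1 read in forebrain), a pseudogene in *Eya2* (*Gm11460*, 202.91 and 695.43) and a *U6* gene in *Eya4* (0 and 22.97, 3 reads in forebrain), none of which shares exonic bases with its host.

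The genes most like the member of each family with the highest RPKM in either sample (*Six2*, by its forebrain level, and *Eya3*) were taken as the 3 protein-coding genes nearest in log2(RPKM + 1) over the 2 samples. For *Six2* these were *Neurog2*, a proneural factor (0.55 and 399.98, distance 0.045), *Hapln1*, a matrix link protein gene (0.72 and 427.21, 0.136), and *Hemgn*, a gene of blood cells (0.49 and 468.75, 0.21). For *Eya3* these were *Ppp1r14b* (351.71 and 500.89, 0.005), *Fam69b* (346.14 and 501.35, 0.022) and *Net1* (357.53 and 497.25, 0.026). With 2 samples, many genes can lie this near.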

How the data were processed

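Strand-specific, single-end RNA-seq libraries from ribosomal RNA-depleted total RNA were made by the authors from 1 sample of ES cells and 1 of E10.5 forebrain. Mapping to NCBIM37 (mm9) was done by the authors in HTSstation, and the submitters' processing notes name Bowtie 0.12.7. The deposited value per gene is called RPKM by the authors. Gene positions matched the NCBIM37 annotation for all 29311 genes.

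Low values of genes with up to 2500 exonic bases fell on steps, and 1 read was worth 1.222 (ES cells) and 0.8193 (forebrain) RPKM per kilobase, with a product of 1.001. The scaling is therefore not per 1000000 reads. Of low values above 0, 59.3% and 61.0% lay within 0.05 of whole reads, and others at fractions of a read. Reads were rounded to whole numbers. Intervals are exact (Poisson, or Clopper-Pearson for ratios), use these inferred reads, and cover counting error only.

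Differences used a pseudocount of 1, and no p-value was computed, since each group held 1 sample. The script was tested on simulated data. Members and lists were chosen with earlier results of these data known. Named were the 9 members, list genes past 4-fold and the 2 highest in each sample, neighbouring and overlapping genes, and the 3 genes nearest to *Six2* and *Eya3*. 1 neighbouring gene and some list genes are not reported here by name, and the marker *Tfap2b* was not analysed here. Alternatives covered pseudocounts of 0.1 and 5, 3 scalings, a filter, a 2-fold rule and leaving out the highest member. Protein-coding genes as background, the sum of *Six3* with *Six3os1* and leaving out each member of a family in turn were added after seeing the data. Python with numpy, pandas and scipy was used.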

Additional observations from a re-analysis of the deposited data

How the results depend on the processing

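The 7 members counted as at least 4-fold higher in forebrain numbered 7 under both pseudocounts and the scalings by column total and upper quartile. The filter, the 2-fold rule and the protein-coding background also gave 7, but none of these could lower the count. Under these settings 9.72% to 25.8% of all genes passed. Scaled per 1000000 reads on genes, 3 members and 3.55% of all genes passed. That scaling divides the values by 52.2 (ES cells) and 49.0 (forebrain), so the pseudocount of 1 stands for more reads. No member was higher in ES cells under any alternative, with 2.37% to 23.3% of all genes passing. Every member had the higher deposited RPKM in forebrain, so only the scalings could have placed a member higher in ES cells. Scaling by the column total moved the median of all genes by 0.25, and *Six4* then had a difference of 0.44 and *Eya3* of 0.78.

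The median log2 difference of the Six-family genes and of all members was 6.06 with a pseudocount of 0.1 and 2.52 with 5, and per 1000000 reads it was 0.91 and 1.74. That of the *Eya* genes was 3.41 with a pseudocount of 5, 1.91 per 1000000 reads and 6.25 without *Eya3*. None of the 46 alternative values of single members was below 0, but a change of pseudocount alone could not alter the sign. The cause of these shifts was not tested beyond the construction given. Genes with 0 to 4 reads in ES cells (*Six2*, *Six3*, *Six6*, *Eya2*, *Eya4*) limit their ratios. No paired analysis was possible because each group holds 1 sample and no test was made, and leaving out a replicate was not possible for the same reason.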
